A study of Mus musculus with 13 samples.

Results

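From the systems that set the tone of lung blood vessels, 10 genes were followed, out of the 32544 gene symbols in the count table. They were chosen by symbol and form 4 groups, which are the endothelin ligand and its receptors (Edn1, Ednra and Ednrb), adrenomedullin with its receptor and the receptor's accessory proteins (Adm, Calcrl, Ramp1, Ramp2 and Ramp3), angiotensin-converting enzyme (Ace) and endothelial nitric oxide synthase (Nos3). Whole lung of wild-type C57BL/6J males, bought at an age of 7 weeks and used when older per the study's methods, was compared between 7 libraries from air (Normoxia, 21% oxygen) and 6 from 80% oxygen (Hyperoxia), both after 5 days. All lungs were flushed with cold buffered saline before freezing, so the RNA came from a mixture of all lung cells. Each library was made by Quant-seq, in which reads are taken from the 3′ end of each mRNA and counted per gene.

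Endothelin is a peptide cut from a longer precursor, and it contracts vessels through receptor A on smooth muscle, while receptor B on endothelium releases nitric oxide and clears the peptide. Adrenomedullin and the related calcitonin gene-related peptide (CGRP) dilate vessels through Calcrl, whose choice of ligand is set by the RAMP protein it pairs with. Angiotensin-converting enzyme, abundant on lung capillaries, makes angiotensin II and degrades bradykinin.

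In hyperoxia, the endothelin ligand Edn1 and the synthase Nos3 rose, by 2.08 and 1.92 on the log2 scale, and the receptors Ednrb and Calcrl and the accessory protein Ramp1 fell, with log2 fold changes of -1.89, -1.85 and -1.44, at edgeR adjusted p under 0.05. Ednra, Ramp2 and Ace did not pass the test. Counts of Adm and Ramp3 were too low to pass the filter of the test. Of the 8 members tested with edgeR's quasi-likelihood test, 2 were higher and 3 were lower at an adjusted p under 0.05, against 11.8% higher, 10.8% lower and 22.6% in either direction of all 12496 genes tested. The groups did not overlap for 5 of the 8 members tested, against 10.8% of all genes tested. The median log2 fold change was -0.46 over the 8 members tested and -0.03 over all genes tested. In whole tissue, fewer cells of a type and less RNA per cell cannot be told apart.

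**Figure D1:**
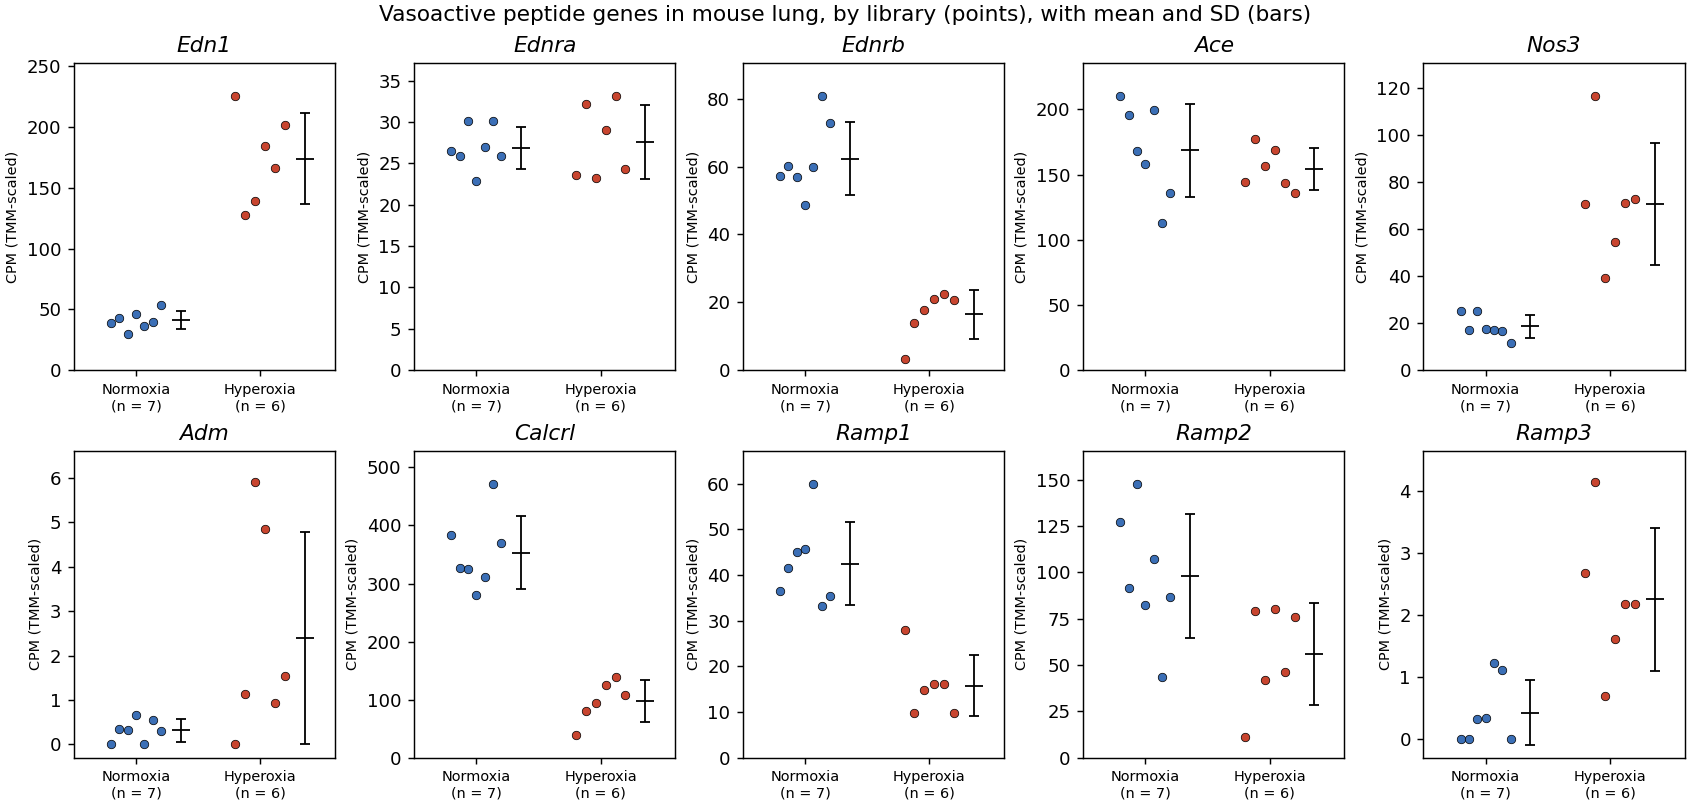
Level of each member in TMM-scaled CPM, counts scaled to library depth (vertical axes start at or just below 0), in 7 Normoxia and 6 Hyperoxia libraries. Each point is a library, and the bars are the mean and SD. Points of the groups are apart for Edn1, Ednrb, Calcrl, Ramp1 and Nos3, and they overlap for Ednra, Ace, Ramp2, Adm and Ramp3.

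Total counts ran from 1607111 to 4540288 per library. The library Hyperoxia 1 stood apart: its log2 CPM over the genes tested correlated at 0.72 to 0.83 with the others, while all other pairs of libraries gave 0.85 to 0.97. Alveolar epithelial markers summed to 6437 to 16057 CPM in Normoxia and to 743 to 4823 CPM in Hyperoxia, with 0 of 8 rising and 3 of 8 falling, and none was at 0 in any hyperoxic library. Most of that sum was the surfactant gene Sftpc, with means of 9637 and 1465 CPM, while Ager, Hopx, Aqp5 and Sftpb had log2 fold changes of -0.11, 0.08, -0.02 and -0.38 and did not pass the test. Lamp3 (log2 fold change -1.73, adjusted p = 2.01e-07) and Rtkn2 (-0.95, adjusted p = 0.0246, both edgeR) fell as well, and Napsa had -1.15 (adjusted p = 0.0933, edgeR). The leading letters of the library names split into B to M (5 Normoxia, 3 Hyperoxia, among them Hyperoxia 1) and O to S (2 Normoxia, 3 Hyperoxia). What these letters stand for is not given, and within-set values (differences of mean log2 CPM) are given beside each member. The labels do not state that each library is a separate mouse, so p-values measure the spread between these libraries.

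Edn1, the endothelin ligand (chr13:42301476-42307990, + strand, GRCm38), showed the largest change of the 8 tested members. Its level was 29.8, 39.9 and 53.2 CPM (lowest, median and highest) in Normoxia and 127, 175 and 226 CPM in Hyperoxia. Every hyperoxic library lay above every normoxic one, and the highest was Hyperoxia 1. The means were 41.1 ± 7.47 CPM (SD, n = 7) and 174 ± 37.4 CPM (SD, n = 6). The log2 fold change was 2.08 (SE 0.17, 95% interval 1.72 to 2.44, adjusted p = 6.85e-07, edgeR). It stayed between 2.01 and 2.19 when each library was left out in turn, and was 2.03 within B to M and 1.98 within O to S.

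Ednra, the contractile receptor on smooth muscle (chr8:77663031-77724464, - strand), had almost the same level in both groups. Its level was 22.9, 26.5 and 30.1 CPM in Normoxia and 23.3, 26.7 and 33.1 CPM in Hyperoxia, and the ranges overlapped almost completely. The log2 fold change was 0.04 (SE 0.15, 95% interval -0.28 to 0.35, adjusted p = 0.891, edgeR). Its sign turned negative under library size scaling alone (-0.03) and under other settings, so no direction is given. It was -0.02 within B to M and 0.03 within O to S. Smooth muscle markers, genes of the cells that carry this receptor, summed to 299 to 421 CPM in Normoxia and 473 to 844 CPM in Hyperoxia, with 3 of 7 rising and 0 falling, while 1 of 7 pericyte markers rose and 1 fell (summed 176 to 267 and 114 to 277 CPM). The part of these cells in the Ednra level was not tested.

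Ednrb, the receptor that clears endothelin (chr14:103814625-103844402, - strand), fell by 1.89 on the log2 scale. Its level was 48.8, 60.0 and 80.8 CPM in Normoxia and 3.22, 19.1 and 22.5 CPM in Hyperoxia. All hyperoxic libraries lay below all normoxic ones, and Hyperoxia 1, with 6 counts, was far below the rest. The means were 62.4 ± 10.8 CPM (SD, n = 7) and 16.5 ± 7.17 CPM (SD, n = 6). The SE was 0.28, the 95% interval -2.49 to -1.29 and the edgeR adjusted p 2.17e-04. Without Hyperoxia 1 the log2 fold change was -1.68, and within the letter sets it was -2.49 (B to M) and -1.81 (O to S).

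The shift of receptors was also measured inside each library as the log2 ratio of Ednra to Ednrb counts, which does not depend on scaling between libraries. This ratio was -1.49, -1.15 and -0.92 (lowest, median and highest) in Normoxia and 0.24, 0.51 and 2.78 in Hyperoxia. Every normoxic library had fewer counts of Ednra than of Ednrb, and every hyperoxic one had more. The group means differed by 2.13 (exact two-sided permutation test over all splits into 7 and 6, p = 0.000583, the smallest this design allows, Benjamini-Hochberg p = 0.00233 over 4 ratios). The difference was 1.76 without Hyperoxia 1. When libraries were paired by replicate number, which leaves out Normoxia 7, it was 2.08 with an adjusted exact p of 0.0625 (p = 0.03125 is the smallest that 6 pairs allow).

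**Figure D2:**
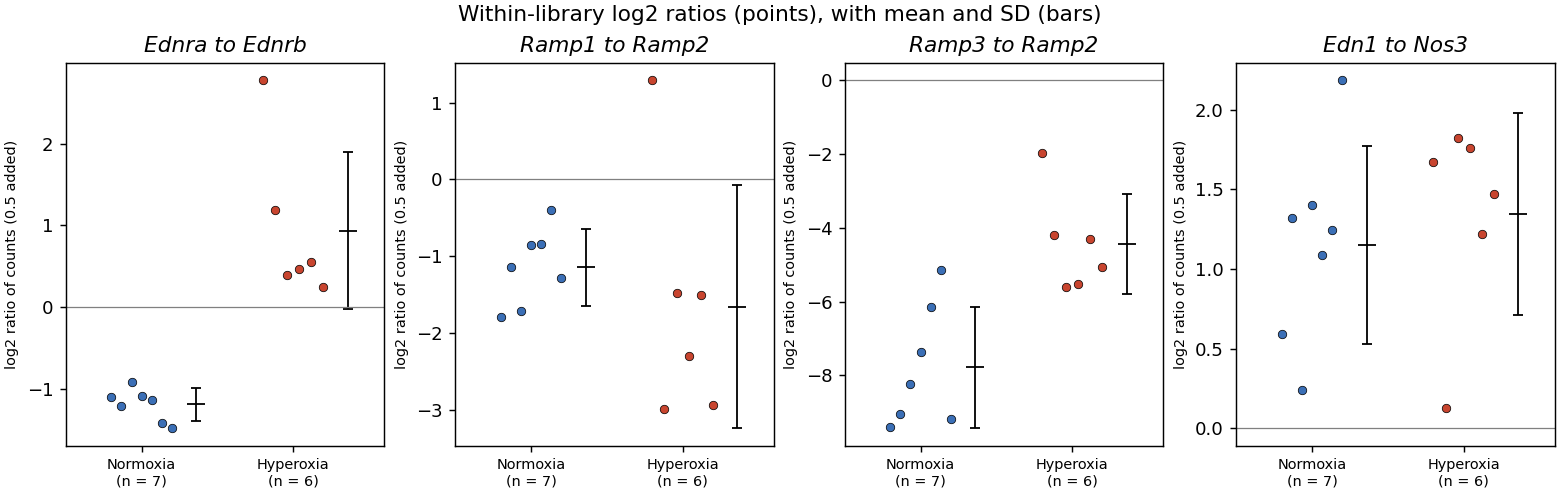
Log2 ratios of the counts of 2 members within each library (vertical axis, 0.5 added to each count) for 7 Normoxia and 6 Hyperoxia libraries, where points are libraries and bars are the mean and SD. For Ednra to Ednrb the groups are apart, with the highest Normoxia value at -0.92 and the lowest Hyperoxia value at 0.24, and Hyperoxia 1 is the high point of the first 3 panels.

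Of 5 other endothelin genes, 3 were tested, 1 rose and 1 fell, with a median log2 fold change of -0.53. Edn3, a ligand with a preference for receptor B, fell by 2.10 on the log2 scale (SE 0.27, adjusted p = 5.84e-05, edgeR). Ece2, a protease of the endothelin-converting enzyme family, rose by 1.23 (SE 0.29, adjusted p = 0.00639, edgeR). Ece1, the main endothelin-converting enzyme, had a log2 fold change of -0.53 (SE 0.40, adjusted p = 0.376, edgeR). Edn2, another ligand, and Ecel1, a related protease, had too few counts to be tested.

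Calcrl, the receptor for adrenomedullin and CGRP (chr2:84330626-84425411, - strand), fell by 1.85 on the log2 scale. Its level was 280, 327 and 472 CPM in Normoxia and 39.1, 102 and 139 CPM in Hyperoxia. The groups were well apart, and Hyperoxia 1 was again the lowest. The means were 353 ± 63.1 CPM (SD, n = 7) and 97.9 ± 35.7 CPM (SD, n = 6). The SE was 0.24, the 95% interval -2.35 to -1.34 and the edgeR adjusted p 5.81e-05. Leaving out each library in turn gave -1.97 to -1.67, and the letter sets gave -2.27 (B to M) and -1.75 (O to S).

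Ramp1, which makes Calcrl a CGRP receptor (chr1:91179822-91225196, + strand), fell by 1.44 on the log2 scale. Its level was 33.2, 41.6 and 60.0 CPM in Normoxia and 9.82, 15.5 and 27.9 CPM in Hyperoxia. The groups did not overlap, although here Hyperoxia 1 was the highest hyperoxic library, at 27.9 CPM. The means were 42.5 ± 9.12 CPM (SD, n = 7) and 15.8 ± 6.61 CPM (SD, n = 6). The SE was 0.24, the 95% interval -1.95 to -0.93 and the edgeR adjusted p 4.76e-04. The letter sets gave -1.46 (B to M) and -1.28 (O to S).

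Ramp2, which makes Calcrl an adrenomedullin receptor (chr11:101246028-101259546, + strand), did not pass the test. Its level was 43.8, 91.5 and 148 CPM in Normoxia and 11.3, 61.2 and 80.0 CPM in Hyperoxia, with overlap and a wide spread in both groups. The log2 fold change was -0.80 (SE 0.35, 95% interval -1.54 to -0.06, adjusted p = 0.114, edgeR). It was -1.67 within B to M, which holds Hyperoxia 1, and 0.09 within O to S. Ramp2 overlaps Vps25, a gene of membrane protein sorting, on the same strand, and Vps25 had a log2 fold change of 0.06 (SE 0.34, adjusted p = 0.927, edgeR).

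The log2 ratio of Ramp1 to Ramp2 counts compares the accessory proteins inside a library. It was -1.79, -1.14 and -0.40 in Normoxia and -2.99, -1.90 and 1.29 in Hyperoxia, and the highest value was that of Hyperoxia 1. The group means differed by -0.51 (exact two-sided permutation p = 0.454, Benjamini-Hochberg p = 0.589 over 4 ratios). Without Hyperoxia 1 they differed by -1.10 (Benjamini-Hochberg p = 0.0185, exact permutation test), so the outcome turned on that library.

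Ramp3, another partner that makes Calcrl an adrenomedullin receptor (chr11:6658521-6677475, + strand), was counted rarely. It had 0 to 4 counts per normoxic library (8 in all, 3 libraries at 0) and 2 to 11 counts per hyperoxic library (41 in all). Its level was 0, 0.33 and 1.23 CPM in Normoxia and 0.69, 2.19 and 4.16 CPM in Hyperoxia, with overlap between the groups. With no filter on low counts, Ramp3 had a log2 fold change of 2.39 (SE 0.69, adjusted p = 0.0252, edgeR). The adjusted p was 0.0636 without Hyperoxia 2 and 0.0502 without Normoxia 2 (edgeR), so the call rested on single libraries. The difference of mean log2 CPM was 1.54 within B to M and 1.28 within O to S. The log2 ratio of Ramp3 to Ramp2 was higher by 3.34 in Hyperoxia (exact permutation p = 0.00466, Benjamini-Hochberg p = 0.00932 over 4 ratios). The groups overlapped, with the highest normoxic ratio at -5.13 and the lowest hyperoxic one at -5.60. With Ramp3 at 0 in 3 normoxic libraries the added 0.5 counts bear on the size, and the difference was 2.35 with 2 counts added and 2.85 without Hyperoxia 1. With libraries paired by replicate number it was 3.11 (adjusted exact p = 0.0625).

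Adm, the adrenomedullin precursor and a gene known to be induced by low oxygen (chr7:110627661-110629820, + strand), was also near the detection limit. It had 0 to 2 counts per normoxic library (7 in all, 2 libraries at 0) and 0 to 18 counts per hyperoxic library (48 in all, 1 library at 0). Most hyperoxic counts came from Hyperoxia 3 with 17 and Hyperoxia 4 with 18, while Hyperoxia 1 had none. A count of 0 in Hyperoxia 1 allows up to 1.61 CPM, taking 3 counts as the limit and covering counting error only. With no filter on low counts, Adm had a log2 fold change of 2.74 (SE 0.74, adjusted p = 0.0171, edgeR), and the adjusted p was 0.056 without Hyperoxia 3 and 0.0542 without Hyperoxia 4 (edgeR). The difference of mean log2 CPM was 1.14 within B to M and 1.31 within O to S.

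Of 10 other hypoxia-inducible genes, 7 were tested, 2 rose and 2 fell, with a median log2 fold change of -0.15. The glucose transporter Slc2a1 rose by 1.24 (SE 0.30, adjusted p = 0.00668, edgeR) and the mitochondrial protein Higd1a by 0.74 (SE 0.23, adjusted p = 0.0316, edgeR). The collagen hydroxylase subunit P4ha1 fell by 0.62 (SE 0.15, adjusted p = 0.00771, edgeR) and the kinase Pdk1, which restrains pyruvate oxidation, fell by 0.68 (SE 0.19, adjusted p = 0.0186, edgeR). Egln3, Ankrd37 and Car9 were not tested.

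Of 8 other genes of the adrenomedullin and CGRP family, 4 were tested, 1 rose and 1 fell, with a median log2 fold change of 0.10. Ackr3, a receptor that takes up adrenomedullin and the chemokine CXCL12, rose by 2.36 (SE 0.18, adjusted p = 4.26e-07, edgeR). Mme, the peptidase neprilysin, which degrades many vasoactive peptides, fell by 0.80 (SE 0.18, adjusted p = 0.00459, edgeR). The ligand genes Adm2, Calca and Calcb and the calcitonin receptor Calcr were not tested.

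Promoter sequence is shown for Edn1 and Ednrb, the ligand and the receptor that moved in opposite directions, and for Adm, the gene known for its response to oxygen. Each is the 250 bases before the RefSeq start, 5′ to 3′ on the gene's own strand. The windows are chr13:42301226-42301475 (Edn1, +), chr14:103843702-103843951 (Ednrb, -) and chr7:110627407-110627656 (Adm, +) of GRCm38.p6. The Ednrb window lies inside the gene as GENCODE places it (chr14:103814625-103844402), because the RefSeq start used lies within that span. Capitals mark matches on either strand to ACGTG or GCGTG (cores of the hypoxia response element), TGANTCA (AP-1), GATAA (GATA factors) or GGGCGG (GC box), letters chosen after the members' values and promoters were seen.
Edn1: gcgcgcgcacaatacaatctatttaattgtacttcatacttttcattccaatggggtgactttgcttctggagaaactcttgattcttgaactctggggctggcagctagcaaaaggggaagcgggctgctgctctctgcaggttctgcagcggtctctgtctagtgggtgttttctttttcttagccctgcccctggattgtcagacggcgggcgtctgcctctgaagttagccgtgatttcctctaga
Ednrb: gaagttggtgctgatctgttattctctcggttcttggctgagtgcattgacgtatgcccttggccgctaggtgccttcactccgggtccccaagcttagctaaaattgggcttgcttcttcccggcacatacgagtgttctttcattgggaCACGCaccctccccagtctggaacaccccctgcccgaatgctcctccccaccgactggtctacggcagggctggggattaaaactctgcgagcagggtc
Adm: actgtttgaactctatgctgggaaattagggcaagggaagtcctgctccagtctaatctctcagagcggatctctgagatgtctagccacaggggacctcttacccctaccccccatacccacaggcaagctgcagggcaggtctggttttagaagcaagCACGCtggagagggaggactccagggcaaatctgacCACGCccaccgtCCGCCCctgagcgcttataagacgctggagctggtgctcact
The Adm window held GCGTG at 2 places and GGGCGG at 1, all read on the opposite strand, the Ednrb window held GCGTG at 1 place, and the Edn1 window held none of the 5. Of 32851 promoter windows of the same length, 16.6% held ACGTG, 28.2% GCGTG, 6.75% TGANTCA, 22.6% GATAA and 32.7% GGGCGG. RefSeq promoters were matched for 8 of the 10 members. Such matches describe letters and say nothing of a factor's binding.

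Ace, which converts angiotensin I to angiotensin II on endothelium (chr11:105967945-105989964, + strand), stayed within the spread of the libraries. Its level was 113, 168 and 210 CPM in Normoxia and 136, 150 and 178 CPM in Hyperoxia, so the hyperoxic range lay inside the normoxic one. The log2 fold change was -0.13 (SE 0.15, 95% interval -0.45 to 0.20, adjusted p = 0.596, edgeR). It was -0.22 within B to M and 0.26 within O to S.

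Of 12 other renin-angiotensin genes, 4 were tested, 1 rose and 1 fell, with a median log2 fold change of -0.13. Enpep, the aminopeptidase that trims angiotensin II, had a log2 fold change of -1.50 (SE 0.25, adjusted p = 5.66e-04, edgeR). Atp6ap2, the prorenin receptor, which is also a proton pump subunit, rose by 0.74 (SE 0.20, adjusted p = 0.0129, edgeR). Agt, Ren1, Agtr1b, Agtr2, Mas1, Anpep, Cma1 and Ctsg were not tested.

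Nos3, the synthase that makes nitric oxide in endothelium (chr5:24364810-24384474, + strand), rose by 1.92 on the log2 scale. Its level was 11.6, 17.2 and 25.4 CPM in Normoxia and 39.3, 71.0 and 117 CPM in Hyperoxia. The groups did not overlap, and Hyperoxia 2 was the highest. The means were 18.7 ± 4.96 CPM (SD, n = 7) and 70.9 ± 26.0 CPM (SD, n = 6). The SE was 0.24, the 95% interval 1.41 to 2.43 and the edgeR adjusted p 4.3e-05. The range was 1.75 to 2.07 when each library was left out, and the letter sets gave 1.74 (B to M) and 2.18 (O to S).

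Nos3 overlaps the autophagy gene Atg9b on the opposite strand. Atg9b, at 0.37 to 6.13 CPM in Normoxia and 5.90 to 24.7 CPM in Hyperoxia, also rose, by 2.20 (SE 0.49, adjusted p = 0.00415, edgeR). Whether counting used strand is not stated in the sources used here, so reads of this pair may not be fully separated. Edn1, Ednra, Adm, Ramp3 and Ace also overlap genes on the opposite strand and are uncertain to that extent, although the partner of Ramp3, Gm11978, was at 0 CPM in every normoxic library and at most 0.27 CPM in a hyperoxic one.

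The rises of Edn1 and Nos3 were close in size. The log2 ratio of Edn1 to Nos3 was 0.24, 1.25 and 2.18 in Normoxia and 0.12, 1.57 and 1.82 in Hyperoxia, with overlapping groups. The means differed by 0.19 (exact two-sided permutation p = 0.589, Benjamini-Hochberg p = 0.589 over 4 ratios), and from 0.04 to 0.44 when each library was left out, which does not show that they changed alike.

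**Figure D3:**
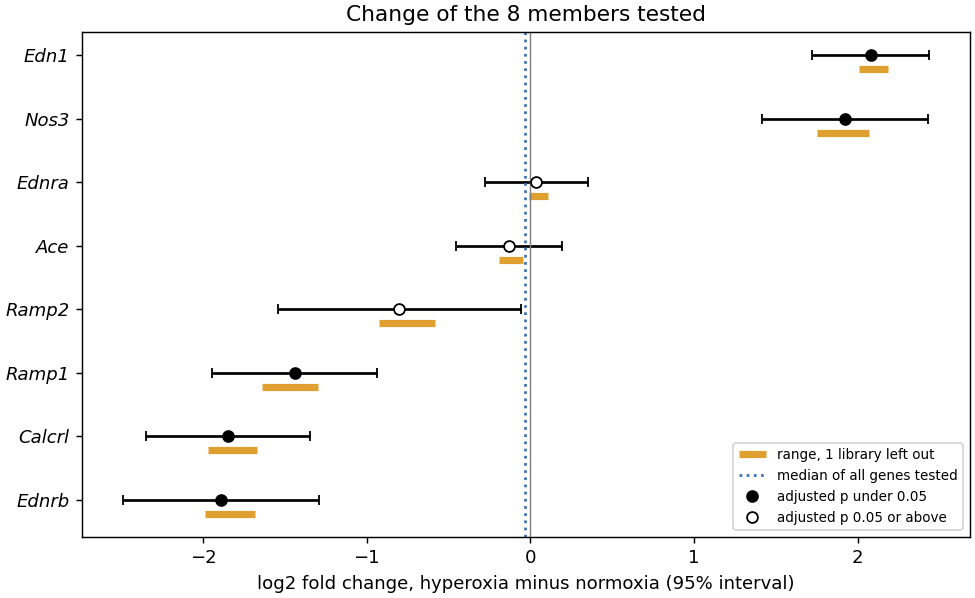
Log2 fold change, Hyperoxia minus Normoxia, of the 8 members tested (horizontal axis, points with 95% intervals, filled where the edgeR adjusted p is under 0.05), with the range when each library is left out in turn (orange bars). Edn1 and Nos3 lie near 2, Ednrb and Calcrl near -1.9, and the intervals of Ednra and Ace cross 0.

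Of 18 other genes of nitric oxide and cyclic GMP signalling, 15 were tested, 3 rose and 3 fell, with a median log2 fold change of -0.25. Ddah1, which degrades the natural synthase inhibitor asymmetric dimethylarginine, rose by 2.62 (SE 0.19, adjusted p = 2.26e-07, edgeR). Slc7a1, the main arginine carrier of many cells, rose by 1.45 (SE 0.17, adjusted p = 2.31e-05, edgeR). Gch1, the first enzyme of synthesis of the cofactor tetrahydrobiopterin, rose by 1.07 (SE 0.19, adjusted p = 8.17e-04, edgeR). Ddah2, the other enzyme that degrades this inhibitor, had a log2 fold change of -0.94 (SE 0.41, adjusted p = 0.117, edgeR).

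In the same list, Pde5a, which breaks down cyclic GMP, fell by 0.96 (SE 0.20, adjusted p = 0.00294, edgeR). Gucy1a3 (now Gucy1a1), the alpha subunit of the nitric oxide receptor guanylate cyclase, fell by 0.64 (SE 0.18, adjusted p = 0.0184, edgeR). The sixth called gene was Pts, of cofactor synthesis, which fell by 0.77 (SE 0.24, adjusted p = 0.0288, edgeR). Nos1, Nos2 and Ass1 were not tested.

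Of 12 genes of other vasoactive peptides, 5 were tested, 0 rose and 3 fell, with a median log2 fold change of -0.77. All 3 were natriuretic peptide receptors, the cyclase receptors Npr1 (fell by 0.77, adjusted p = 0.019) and Npr2 (fell by 0.91, adjusted p = 0.0102) and the clearance receptor Npr3 (fell by 0.98, adjusted p = 0.00447, all edgeR). Nppb, Nppc, Bdkrb1, Bdkrb2, Kng1, Vip and Vipr1 were not tested.

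**Figure D4:**
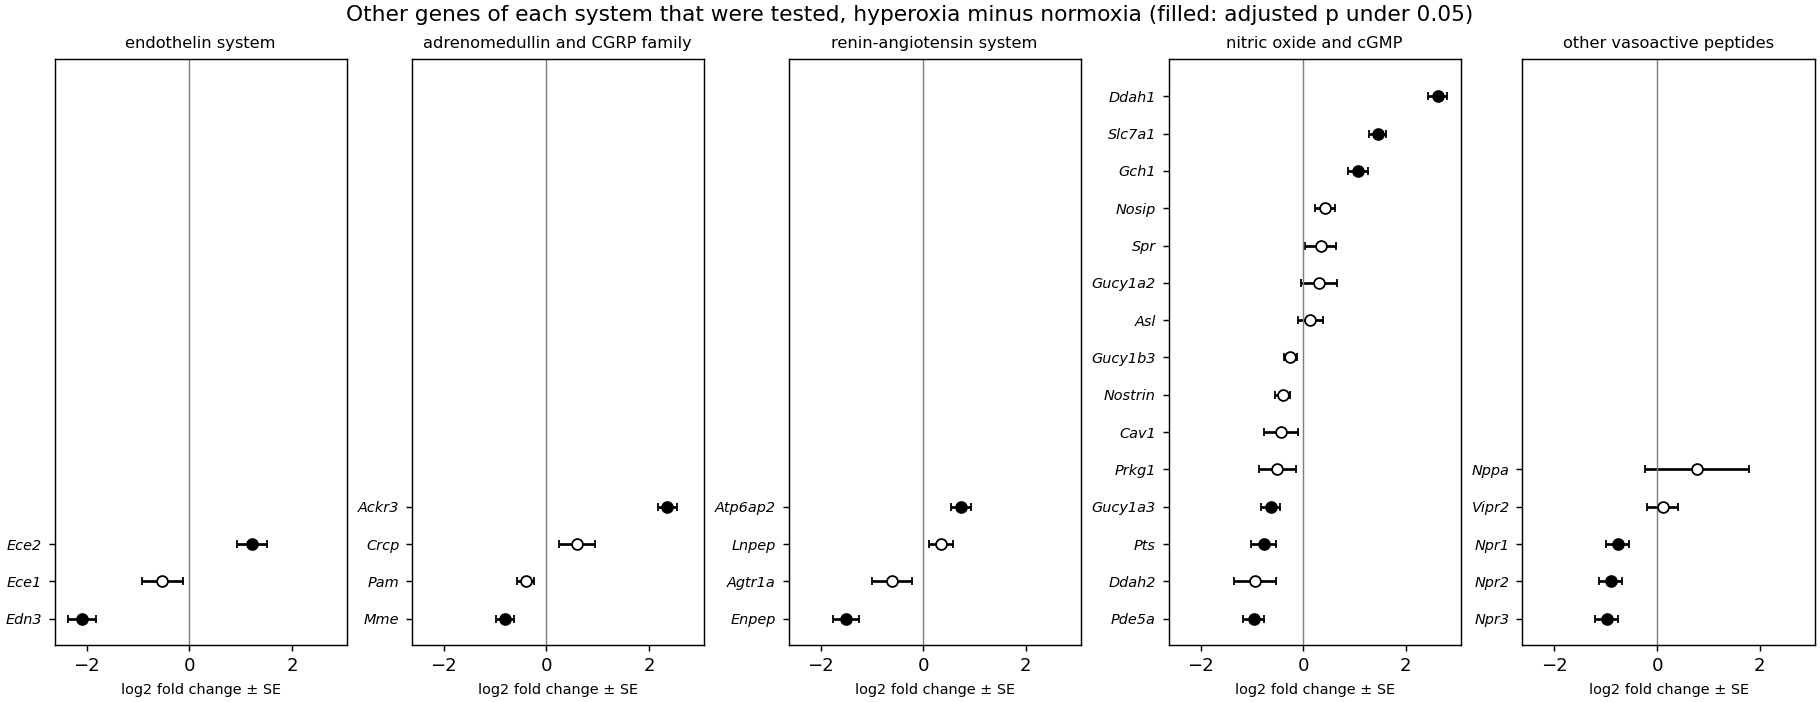
Log2 fold change, Hyperoxia minus Normoxia, with its SE (horizontal axes), of the other genes of each system that were tested, with 1 panel per list, where filled points passed the edgeR test at an adjusted p under 0.05. Ddah1 (2.62) and Ackr3 (2.36) lie farthest to the right and Edn3 (-2.10) farthest to the left.

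Several members are genes of endothelium, so endothelial markers were set beside them. Pan-endothelial markers summed to 3498 to 5878 CPM in Normoxia and 2924 to 6453 CPM in Hyperoxia, with 2 of 10 rising and 3 falling and none at 0. Aerocyte markers, of the capillary cells in which Ednrb is itself a known marker, summed to 906 to 1133 and 728 to 1053 CPM, with 2 of 7 rising and 2 falling. Of 7 arterial markers, 0 rose and 6 fell, and their sum went from 283 to 379 CPM in Normoxia to 129 to 192 CPM in Hyperoxia. General capillary markers had 1 of 7 rising and 4 falling (2345 to 2842 and 3262 to 6446 CPM), and the higher sum in Hyperoxia was that of Cd93, with means of 755 and 3478 CPM, the other 6 having negative log2 fold changes. Venous markers had 1 of 5 tested rising and 2 falling (794 to 998 and 623 to 1442 CPM). At least 1 hyperoxic library had no count of the capillary marker Aplnr, the arterial marker Hey1, the venous marker Ackr1, the pericyte marker Pdgfrb, the fibroblast marker Tcf21 or the leukocyte markers Cd3e and Nkg7. Ackr1 and Tcf21 were also at 0 in normoxic libraries. The part of these cells in the members' changes was not tested.

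The members were also scaled to the summed counts of the 10 pan-endothelial markers of the same library. This scaling was added after the data were seen. On it the groups did not overlap for 5 of the 8 members tested, against 3.99% of all genes tested. These were the 5 called members, already apart in the same libraries, so this is no separate support for their change. The marker sum was mostly Pecam1 and Egfl7, so the scaling follows a few genes. Pecam1 had means of 2773 and 1605 CPM (log2 fold change -0.79, adjusted p = 0.198, edgeR), and Egfl7, which rose, had means of 501 and 1296 CPM. The mean log2 differences were 2.17 for Edn1, 1.98 for Nos3, -2.01 for Ednrb, -1.84 for Calcrl and -1.38 for Ramp1. Without Hyperoxia 1 they were 2.17, 2.05, -1.52, -1.51 and -1.49 in the same order. For the members that overlapped, Ramp2 had -0.87 (-0.39 without Hyperoxia 1), Ednra 0.13 (0.25) and Ace -0.005 (0.09). The sparse Adm had 1.96 (2.56 without Hyperoxia 1) and Ramp3 2.47 (2.46). Fibroblast markers had 1 of 6 tested rising and 1 falling (1274 to 1746 and 1396 to 2137 CPM), and leukocyte markers had 0 of 5 tested rising and 2 falling (224 to 393 and 122 to 198 CPM).

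The genes whose pattern over the 13 libraries was most like that of the 3 most changed members were found by the root mean square difference of centred log2 CPM. For Edn1 they were the thioredoxin reductase Txnrd1 (0.25), the galectin Lgals3 (0.28) and Psrc1 (0.30). For Nos3 they were the endothelial matrix gene Mmrn2 (0.27), Oraov1 (0.31) and the cyclin Ccnd1 (0.31), which overlap each other on opposite strands and may share reads. For Ednrb the nearest of all genes tested was Calcrl (0.26), a member itself, followed by the leukocyte surface gene Cd48 (0.27) and Mamdc2 (0.28). The measure takes in the difference between the groups and does not show that genes vary together within a group. Log2 fold changes of the 3 nearest genes were 1.84 to 2.27 for Edn1, 1.80 to 2.00 for Nos3 and -2.04 to -1.77 for Ednrb.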

How the data were processed

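Lung RNA of 13 libraries was sequenced by Quant-seq. The authors deposited a table of read counts per gene symbol and the same data as log10 of CPM plus 1. The submitters' processing notes name kallisto, limma 3.54.2 and mm10. The log10 values were recomputed from the counts to within 4.4e-16. Use of strand in counting is not given in the sources used here. Of the symbols, 12826 had no count.

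The deposited counts were tested with edgeR 4.0.16 (R 4.3.3), with TMM scaling, filterByExpr, the quasi-likelihood test and Benjamini-Hochberg adjustment over all 12496 genes tested, at 0.05. The study's methods use limma, and a count test was chosen because the table holds counts. Ratios of 2 members used log2 of counts plus 0.5 (2 as an alternative) and an exact permutation test. Settings tried were DESeq2 1.42.0, limma-voom and limma on log CPM (limma 3.58.1), library size alone, other filters (none, or at least 10 counts in every library), replicate and letter-set terms and leaving out each library. The procedure was tested on simulated data.

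Gene positions are from GENCODE M21 and promoters from RefSeq. Members and gene lists (endothelin, adrenomedullin and CGRP, renin-angiotensin, nitric oxide and cyclic GMP, other vasoactive peptides, hypoxia-inducible genes, and markers) were chosen with earlier results of these data known. Named were all members, called list genes (the 5 with the smallest adjusted p at most), untested list genes, and the 3 nearest genes of the 3 most changed members. Pts, Ece1, Ddah2, the overlapping genes Vps25, Atg9b and Gm11978, and single marker genes were named after their values were seen. Some genes were left out of these lists and are not reported here.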

Additional observations from a re-analysis of the deposited data

Results flagged for a closer look

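The gap of the highest or lowest library to its nearest neighbour, divided by the range of its group, passed Dixon's 95% critical value in 4 of 28 groups examined, where chance alone gives about 1.4. Hyperoxia 1 was the library in 3 of these, and its Ramp1 level was far above the other hyperoxic libraries (gap over range 0.6439). The same library had the highest Ednra to Ednrb ratio (0.6253) and the highest Ramp1 to Ramp2 ratio (0.6475) of its group. Hyperoxia 2 had the lowest Edn1 to Nos3 ratio of its group (0.6469).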

How the results depend on the processing

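Edn1, Ednrb, Calcrl, Ramp1 and Nos3 kept their direction and stayed past the threshold under every setting that tested them, Ednrb being absent with at least 10 counts required in every library. Leaving out each library kept 2 members higher and 3 lower in all 13 fits. Without a filter, 4 of the 10 members were higher, Adm and Ramp3 being added, against 1447 of all 19718 genes in that fit. Both added calls rested on single libraries. The adjusted p rose to 0.056 for Adm without Hyperoxia 3 and to 0.0636 for Ramp3 without Hyperoxia 2 (edgeR). Ednra changed sign with limma on the deposited log CPM (-0.046), library size alone (-0.035) and at least 10 counts (-0.025), and ranged from -0.010 to 0.106 when each library was left out. The Ramp1 to Ramp2 difference ranged from -1.10 (without Hyperoxia 1, adjusted p = 0.0185, exact permutation test) to -0.24. The cause was not tested.

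The replicate block, which also leaves out Normoxia 7 since number 7 has no partner, called 703 genes higher and 588 lower, against 1473 and 1346 in all libraries and 1277 and 1120 without Normoxia 7 alone. It gave 2.08 for Ednra to Ednrb and 3.11 for Ramp3 to Ramp2, both with an adjusted exact p of 0.0625, and changed no other call among the members and ratios. The smallest exact p with 6 pairs is 0.03125. As the other ratios did not reach it, adjustment over the 4 ratios could not go below 0.0625, so neither could pass under the block. The effect of the block on single genes of the lists is not given. Same-numbered libraries deviated with correlations of -0.33 to 0.27, and 0 of 6 numbers had their best match in the same number. What the numbers stand for is not given, and 6 pairs are too few to settle whether same-numbered libraries belong together. Genes called higher were 52.3% of all calls, 42.7% without TMM and 37.8% for limma fitted to the log CPM, where the median of all genes shifted to -0.10 and -0.16. Counts under 20 per library limit Adm and Ramp3.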
